A study of Hirudo medicinalis with 12 samples.

Results

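The transcripts described here are the 200 components of a leech nerve cord assembly that were split into the most contigs. A contig is 1 assembled sequence of the deposited count table, and a component is the group of contigs whose identifiers differ in the sequence number alone. Components with at least 10 contigs were taken in order of their number of contigs, and ties were broken by the identifier, up to 200. These 200 make up 0.341% of the 58593 components and hold 3449 of the 76845 contigs, or 4.49%. They carried from 10 to 106 contigs, with a median of 13, and 49 of them had at least 20. In all, 223 components had 10 contigs or more, and of the 48 with exactly 10 the order of identifiers kept 25 and left out 23. The 25 that were kept had a median level of 41.2 CPM (counts scaled to library size) and the 23 that were left out a median of 25.7 CPM. The most abundant contig of each library took a median of 55.7% of the counts in the 25 and 52.9% in the 23.

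The libraries were made from total RNA of the ganglia chain of adult Hirudo medicinalis, the medicinal leech, kept in 1 colony with no treatment named. Position 19 of the chain was sequenced in 3 libraries (numbers 3, 6 and 9), position 10 in 6 libraries (2, 5, 8, 10, 11 and 12) and position 2 in 3 libraries (1, 4 and 7). The series speaks of 3 leeches without tying a library to an animal, so some libraries of ganglion 10 may come from 1 animal, and p-values measure the spread between libraries, which may be technical in part. The labels vary the position along the chain and also a sequencing lane (lanes 8, 8 and 4 in ganglion 19, 2, 4 and 8 in ganglion 10, and 4, 8 and 2 in ganglion 2). With lane as a term in the models below, no component of the 200 was called in any contrast.

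The leech nerve cord is a string of segmental ganglia, each with a largely repeated set of identified neurons for its own body segment, with position-specific exceptions. When transcripts are assembled from short reads without a genome, overlapping sequences are joined into a graph, and a graph that branches is written out as several contigs. Alternative splicing, alleles, related gene copies, editing and sequencing errors are all known to make such branches, and the number of contigs does not say which. The identifiers carry no gene name, so no function is given for any component and no tissue marker was checked.

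Total counts lay between 6436783 and 19110631, and the 200 components held between 0.795% of it (library 3) and 1.86% (library 10). Libraries 1 and 3 stood apart from the rest, with scaling factors of 0.425 and 0.536 where the other 10 ran from 0.885 to 1.488, and libraries 10, 11 and 12 hold fractional estimated counts that were rounded here. One of libraries 1 and 3 held the highest or the lowest level of 157 of the 200 components, so both are named beside the results that rest on them. Their part in those results was not tested beyond the values without them.

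Many contigs did not mean many contigs in use. The effective number of contigs, which is 1 over the sum of squared shares and equals the number of contigs when all are equally abundant, ran from 1.48 to 15.3 over the components, with a median of 3.35. The most abundant contig of each library, whichever it was, held on average 48.9% of a component's counts (median over the components of the mean over 12 libraries, range 15.8% to 87.9%). In 92 components this mean was above 50%, in 4 it was above 75%, and in 8 it was below 25%. Across the 200 components, Spearman's rho between the number of contigs and the effective number was 0.55. The rho with the mean level was 0.24 for the number of contigs and 0.18 for the effective number. These 3 values are descriptions, since all points come from the same libraries and a component with more counts can show more contigs. Shares and levels are in counts, not divided by contig length, because the table gives no lengths.

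**Figure D1:**
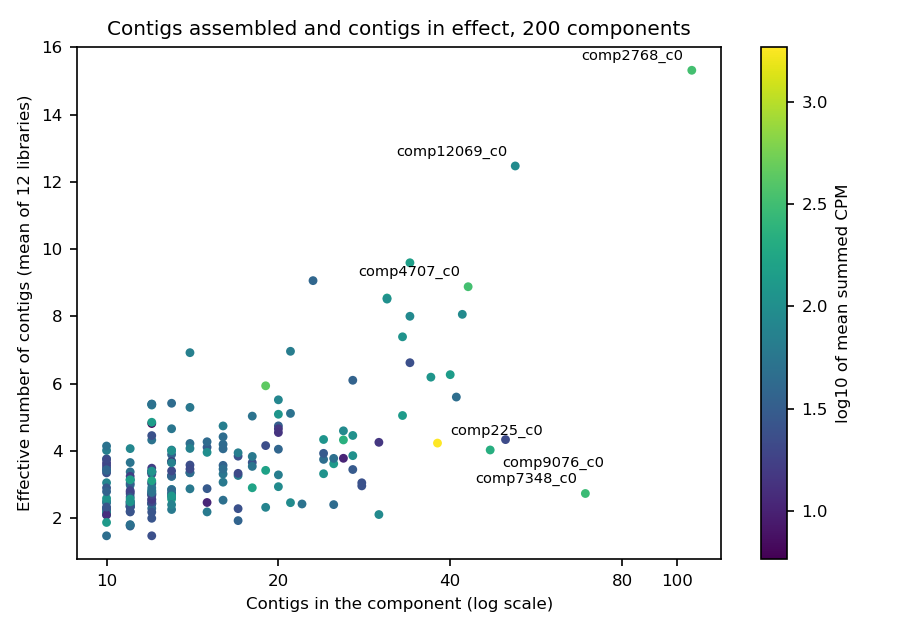
Number of contigs of a component (x axis, log scale) against its effective number of contigs, averaged over 12 libraries (y axis), with 1 point per component coloured by the log10 of its mean summed CPM. The median was 3.35 effective contigs, comp2768_c0 reached 15.3 with 106 contigs, and comp7348_c0 stayed at 2.74 with 69.

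The 10 components with the most contigs differed widely in how evenly they used them. Component comp2768_c0, with 106 contigs, had the highest effective number, 15.3, and the lowest mean share of the most abundant contig, 15.8%. It showed counts on 43, 52 and 59 contigs in the ganglion 19 libraries 3, 6 and 9, on 53 to 60 in ganglion 10 (median 54.5), and on 34, 51 and 61 in the ganglion 2 libraries 1, 4 and 7. Its most abundant contig took 13.3% to 21.5% of the counts in ganglion 19, 11.9% to 17.5% in ganglion 10 and 12.2% to 20.4% in ganglion 2, and 12 of its contigs had counts in all 12 libraries. Its summed level was nearly level along the chain, at 379, 267 and 328 CPM in ganglion 19, 265 to 468 CPM in ganglion 10 (median 293) and 413, 375 and 328 CPM in ganglion 2. The 3 ranges overlapped, and no pairwise log2 fold change exceeded 0.22 in size.

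Component comp7348_c0, second with 69 contigs, was the opposite case. Of its contigs, 37 had no counts in any library, none had counts in all 12, and at most 11 had counts in 1 library. A single contig, comp7348_c0_seq63, took 100% of the 445 counts in library 3 and 94.2% of the 912 in library 1. The same contig took none of the 2427 counts in library 6, none of the 4305 in library 9 and none of the 877 in library 2, where other contigs of the component held them. The component's total level spanned 77.6, 236 and 258 CPM in ganglion 19, 93.7 to 596 CPM in ganglion 10 (median 379) and 177, 318 and 444 CPM in ganglion 2. The ganglia overlapped throughout.

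Component comp12069_c0 had 52 contigs, all of which had counts in some library but at most 34 in any 1 library, and an effective number of 12.5. It showed 9, 18 and 29 contigs in ganglion 19, 29 to 32 in ganglion 10 (median 30) and 15, 23 and 34 in ganglion 2, so the low values fell in libraries 3, 6 and 1. Component comp19916_c0, with 50 contigs, had counts on at most 12 in any library and held only 10 counts in library 3. Component comp9076_c0, with 47 contigs, had the steadiest summed level of all 190 components with counts in every library, with its highest library 1.56 times its lowest. It measured 253, 243 and 236 CPM in ganglion 19, 181 to 255 CPM in ganglion 10 (median 201) and 213, 212 and 164 CPM in ganglion 2. Its contigs moved under that steady sum: comp9076_c0_seq11 took 53.0% of the counts in library 10 and 54.0% in library 1, yet had no counts in libraries 5 and 6, where the component held 2611 and 2496.

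Of the other 5 in the 10 with the most contigs, comp225_c0 had 38 contigs, of which 11 carried counts in every library, and 2 contigs alternated in first place. The leading one, comp225_c0_seq14, took 41.5%, 40.7% and 47.0% in ganglion 19, 26.5% to 45.5% in ganglion 10 (median 32.7%) and 39.9%, 47.7% and 31.5% in ganglion 2. Its summed level had the highest mean of the 200, 1858 CPM, with 1336, 1741 and 1920 CPM in ganglion 19, 732 to 3119 CPM in ganglion 10 (median 1044) and 5797, 1660 and 869 CPM in ganglion 2. The single highest value was that of library 1. Components comp4707_c0, comp16688_c0, comp18050_c0 and comp8998_c0 had 43, 42, 41 and 40 contigs, effective numbers of 8.88, 8.06, 5.603 and 6.27, and 5 to 8 different contigs in first place over the 12 libraries.

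The contigs that carried counts changed from library to library. Of the 3449 contigs, 131 (3.80%) had at least 1 count in all 12 libraries, 348 (10.1%) in 1 library only and 217 in none, and the median was 5 libraries. For comparison, 15.5% of the contigs of components with 2 to 9 contigs and 12.0% of contigs that are alone in their component had counts in all 12. A contig used in every library existed in 64 of the 200 components, although 190 components as a whole had counts in every library. Some contigs cannot be told apart by their counts: 709 of them, in 99 components, had values identical in all libraries to those of another contig of the same component.

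Fewer contigs carried counts in ganglion 19 than in ganglion 10. In ganglion 19, 27.8%, 40.3% and 40.5% of the 3449 contigs had counts in libraries 3, 6 and 9. In ganglion 10 the share ran from 46.3% to 52.0%, and in ganglion 2 it was 28.1%, 44.9% and 47.3% in libraries 1, 4 and 7. After every library was thinned to 6436783 counts, the smallest total, 917, 1369 and 1315 contigs had counts in ganglion 19, against 1579 to 1759 in ganglion 10 and 903, 1548 and 1563 in ganglion 2. Every ganglion 10 library then lay above every library of the other 2 ganglia, and the lowest values were those of libraries 1 and 3. Thinning made the totals equal but not the scaling factors. These were 0.536, 1.06 and 0.885 in ganglion 19, 1.077 to 1.488 in ganglion 10 and 0.425, 1.305 and 1.137 in ganglion 2. Their part in the order was not tested. Contigs of components with 2 to 9 contigs showed a like order as deposited, with counts on 43.2% to 55.8% of contigs in ganglion 19, 61.4% to 65.6% in ganglion 10 and 38.7% to 59.5% in ganglion 2, so the order is not particular to the 200 components.

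**Figure D2:**
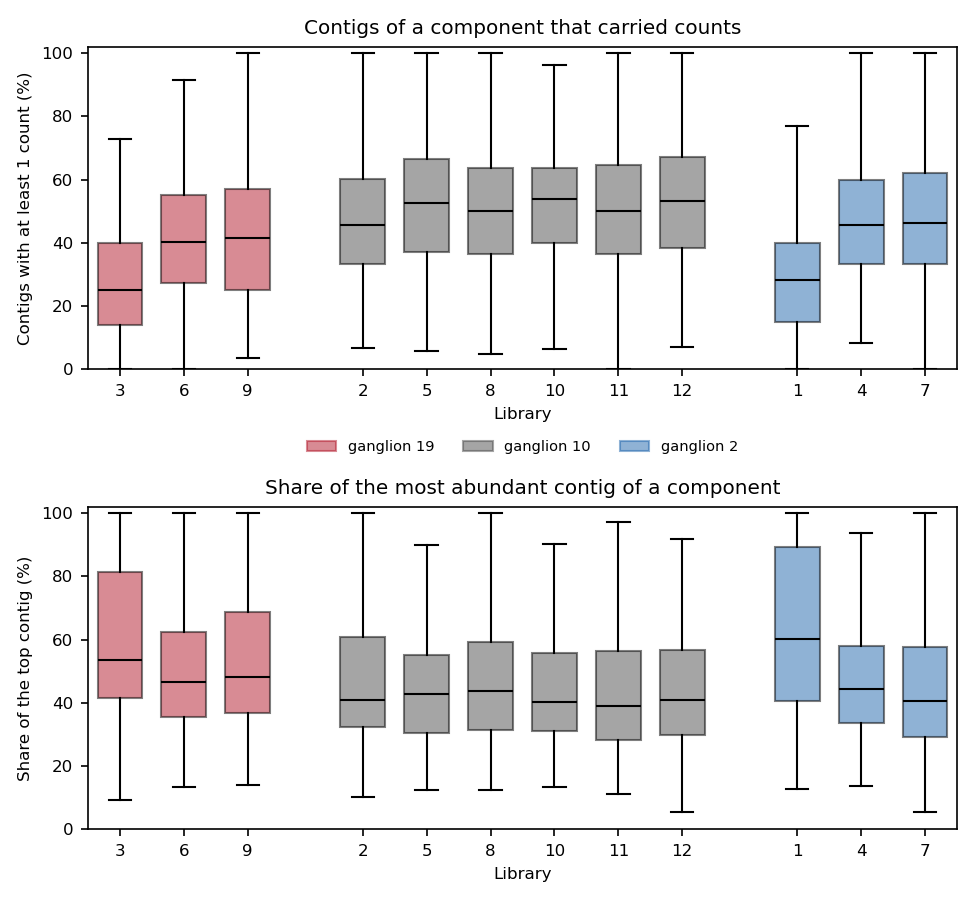
Top, percent of a component's contigs with at least 1 count; bottom, percent of its counts taken by its most abundant contig; each box spans the quartiles of the 200 components in 1 library, with the median as a line and whiskers to the last value within 1.5 box lengths. Libraries are grouped as ganglion 19, 10 and 2; libraries 3 and 1 show the lowest medians in the top panel and the highest in the bottom panel (53.6% and 60.2%).

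Component by component, the same comparison gave few clean separations. At equal total counts, 17 of the 200 components had fewer contigs with counts in every ganglion 19 library than in every ganglion 10 library. The share was 3.26% over the 7357 components with more than 1 contig. Of these, 7134 had 2 to 9 contigs, which leaves less room for such a separation. The backgrounds in this paragraph are therefore not like for like. The opposite held for 1 component, comp5290_c0, against 0.163%. An example among the 17 is comp16993_c0, with 34 contigs, picked after its values were seen. It showed 2, 3 and 7 contigs in ganglion 19 and 12 to 27 in ganglion 10, with 4, 6 and 22 in ganglion 2. Against ganglion 2, the ganglion 19 libraries were all higher for 3 components (comp19521_c0, comp30641_c0 and comp3380_c0, background 1.07%) and all lower for 5 (comp10253_c0, comp25766_c0, comp14872_c2, comp15753_c0 and comp21277_c0, background 1.25%). The ganglion 10 libraries were all above the ganglion 2 libraries for 8 components (background 1.05%) and all below for none (background 0.0408%). The components named in this paragraph were chosen by these counts, which were not adjusted for the level of each component.

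The number of contigs seen also depends on how many counts a component has, so 89 components with at least 100 counts in every library were each reduced to 100 counts per library. The median number of contigs among 100 counts was then 4.78, 6.11 and 5.94 in ganglion 19, 7.37, 7.35, 6.88, 7.55, 7.80 and 7.25 in ganglion 10, and 4.90, 6.86 and 6.21 in ganglion 2. The ganglion 10 libraries again lay above all others, though library 4 of ganglion 2 came within 0.02 contigs of the lowest of them. For 11 of the 89 all ganglion 19 values lay below all ganglion 10 values (background 3.78% of 900 components) and for none above (0.333%). The other components of the 900 had a median of 2 contigs among 100 counts in every library. These backgrounds too are therefore not like for like. Against ganglion 2, ganglion 19 was above for 2 (background 2%) and below for 6 (2.56%). Ganglion 10 was above ganglion 2 for 8 (2.33%) and below for none (0.111%).

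The most abundant contig of a component was seldom the same one in all libraries. Over the 12 libraries a component had a median of 5 different contigs in first place. First place stayed with 1 contig in comp4765_c0 alone, 8 components had 2 leaders, 30 had 3, 55 had 4, 45 had 5, and 32 had 7 or more. When contigs with identical values were merged the median stayed at 5. Between 2 libraries, the same contig led in 15.0% to 49.3% of the components, with a median of 27.5% over 66 pairs of libraries. Pairs within ganglion 19 shared the leader in 23.0% to 25.4% of the components, pairs within ganglion 10 in 27.3% to 49.3%, and pairs within ganglion 2 in 16.0% to 35.2%. Libraries of different ganglia reached 20.3% to 33.3% for 19 and 10, 16.2% to 32.3% for 19 and 2, and 15.0% to 43.7% for 10 and 2. The medians were 24.1% within ganglion 19, 37.7% within ganglion 10 and 18.04% within ganglion 2, against 25.8% for 19 and 10, 21.8% for 19 and 2 and 30.5% for 10 and 2. Pairs within ganglion 10 thus shared the leader more often in the median than pairs of different ganglia, with overlapping ranges, and pairs within ganglion 19 or ganglion 2 did not. All 6 pairs among the ganglion 10 libraries 8, 10, 11 and 12 were at 45.0% or above, over the highest pair of different ganglia. Of these, libraries 10, 11 and 12 are those with fractional estimated counts.

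The share of the most abundant contig in each library also differed between ganglia 19 and 10. Its median over the components was 53.6%, 46.6% and 48.2% in ganglion 19, 38.9% to 43.8% in ganglion 10 and 60.2%, 44.4% and 40.5% in ganglion 2. The mean over libraries of these medians was 49.4% ± 3.68 in ganglion 19 (SD, n = 3), 41.3% ± 1.78 in ganglion 10 (n = 6) and 48.3% ± 10.45 in ganglion 2 (n = 3). The ganglion 19 libraries all exceeded the ganglion 10 libraries, whereas the ganglion 2 libraries lay on both sides.

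Components held by 1 contig in nearly all libraries were few. Among the 89 with at least 100 counts in every library, comp2191_c1, comp11367_c0 and comp4765_c0 had the highest mean share for a fixed leading contig, defined as the contig with the highest mean share over the 12 libraries. In comp4765_c0 that contig, comp4765_c0_seq1, led throughout, with 41.5%, 55.4% and 68.2% in ganglion 19, 56.2% to 82.7% in ganglion 10 (median 64.6%) and 40.6%, 55.7% and 64.1% in ganglion 2. In comp2191_c1, the contig comp2191_c1_seq2 took 100%, 75.1% and 29.6% in ganglion 19, 23.3% to 91.3% in ganglion 10 (median 85.1%) and 66.0%, 62.1% and 73.3% in ganglion 2. The low values of comp2191_c1 were those of library 9 and of library 8, where comp2191_c1_seq1 took 68.9% instead. In comp11367_c0 the leading contig had 0%, 96.7% and 8.45% in ganglion 19, 61.1% to 99.8% in ganglion 10 (median 93.8%) and 94.9%, 1.02% and 69.7% in ganglion 2, so a mean of 66.5% hid 3 libraries in which another contig led. The counting error of these shares was small: the 95% Wilson interval was at most ±9.41 percentage points where a named component had at least 100 counts in the library. Intervals cover counting error only, since copies made by PCR are not independent molecules, and a share of 0% is compatible with up to 3 counts. They leave out any error in dividing reads among similar contigs of 1 component. That error was not measured here, and it bears on all shares and changes of leader in this report.

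**Figure D3:**
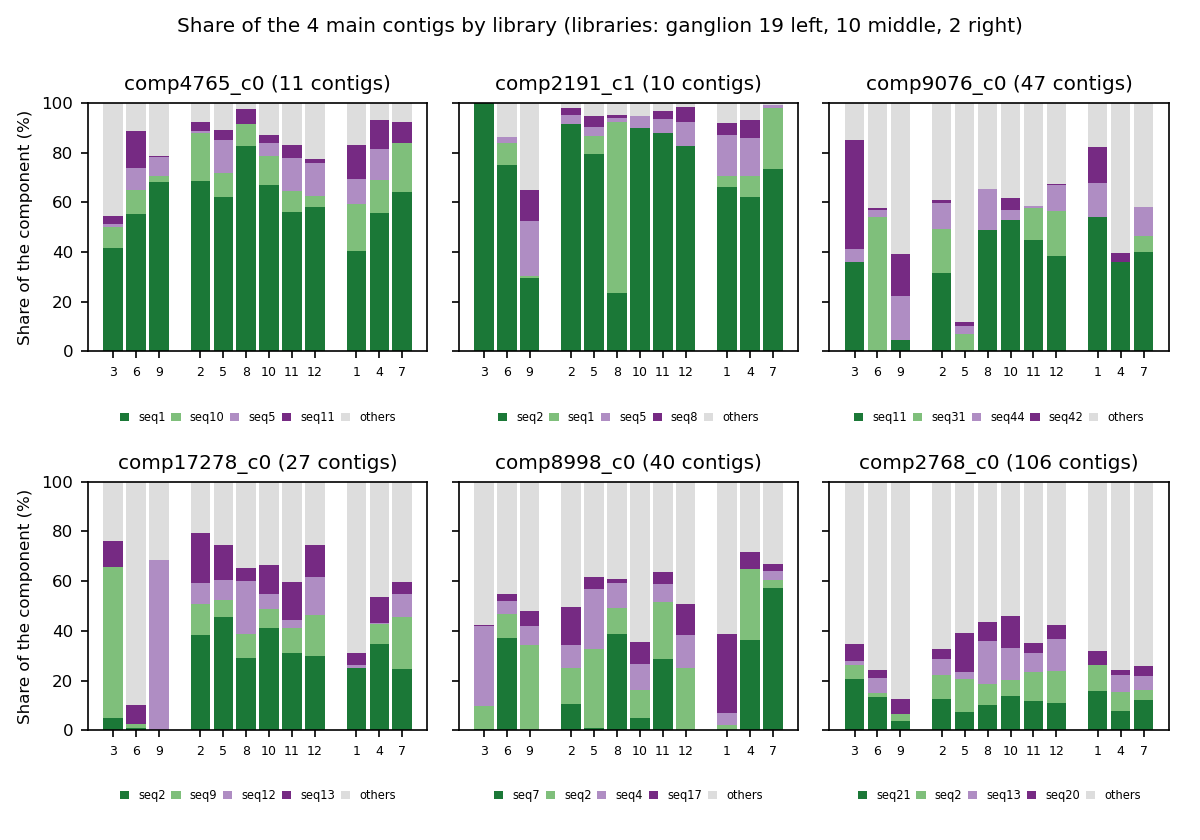
Percent of a component's counts (y axis) taken by its 4 main contigs and by all others, in each library (x axis), with ganglion 19 at left, ganglion 10 in the middle and ganglion 2 at right. The contig comp4765_c0_seq1 led in all 12 libraries, comp2191_c1_seq2 led in all but library 8, and in comp2768_c0 no contig passed 21.5% in any library.

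At the other end, comp12069_c0, comp2922_c1 and comp4707_c0 had leading contigs with mean shares of 10.9%, 11.1% and 11.1%. In comp2922_c1, with 31 contigs, 9 different contigs led in the 12 libraries. Its leading contig comp2922_c1_seq5 took 20.7%, 0% and 12.8% in ganglion 19, 0% to 29.6% in ganglion 10 (median 9.93%) and 0%, 1.09% and 17.4% in ganglion 2. In comp4707_c0 the leading contig was without counts in libraries 3, 6 and 2 and took 28.2% in library 11.

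The summed level of a component adds up all its contigs. All 200 components passed the filter on low counts, which kept 31524 of the 58593 components. Their median over components of the mean level was 47.8 CPM, against 3.36 CPM over all components tested, but a sum over many contigs, or over longer ones, collects more counts. The biological coefficient of variation, the spread between libraries of 1 ganglion beyond counting error, had a median of 0.823 in the 200 components and 1.37 over all tested. It was 1.15 in the tested components with 2 to 9 contigs and 0.886 in the 23 left out at the limit. A spread near that of the 200 was thus also found just outside them. For 103 components (51.5%) all 3 pairwise log2 fold changes were within 1, against 17.9% of all tested, and 29 had at least 1 beyond 2. Of all tested, 24167 were single contigs, with a median level of 2.36 CPM, so this comparison is not at a like level. Within a component the highest library still exceeded the lowest by a median of 12.3 times over the 190 components with counts in every library.

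No component of the 200 passed the test of its summed level in any pair of ganglia. With edgeR's quasi-likelihood test and Benjamini-Hochberg adjustment over all 31524 components, 0 of 200 had an adjusted p under 0.05 for ganglion 19 over 10, where 0.0888% of all tested did. The count was also 0 for ganglion 19 over 2 (0.019% of all) and for ganglion 10 over 2 (0% of all). At an unadjusted edgeR p under 0.05 there were 13 components for ganglion 19 over 10 (21.6% of all tested). There were 19 for 19 over 2 (20% of all) and 19 for 10 over 2 (10.6% of all). The last count is close to the share over all tested, and the first 2 are smaller shares of the 200. For 19 over 10, 5530 of the 6803 components under this p were single contigs. With DESeq2 the adjusted calls were 4 (11% of all), 5 (7.23%) and 4 (1.61%) in the same order of contrasts. With limma voom and library weights they were 2 (0.603%), 0 (0.0381%) and 0 (0%).

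**Figure D4:**
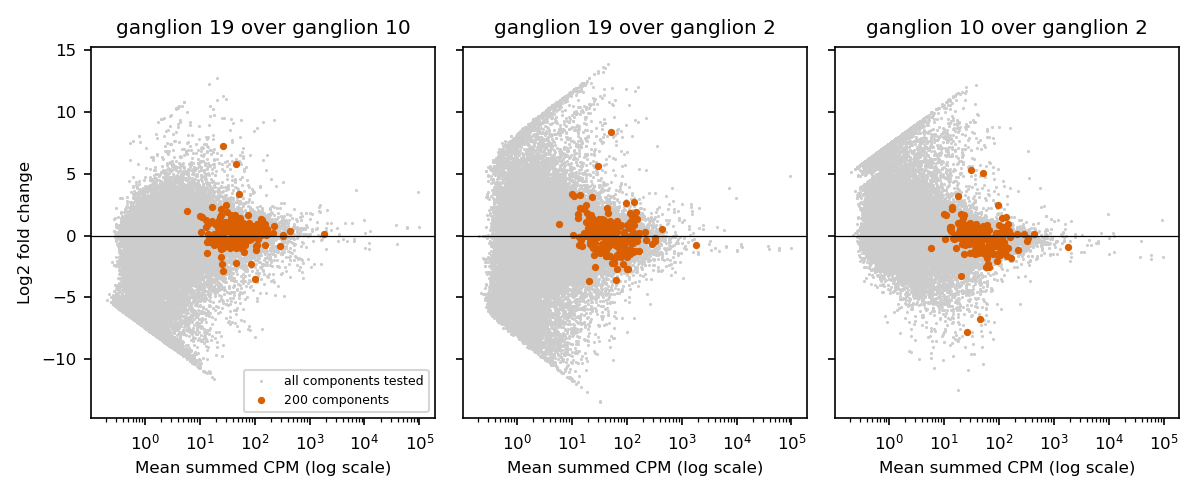
Log2 fold change of the summed level from edgeR (y axis) against mean summed CPM (x axis, log scale) for the 3 pairs of ganglia, with all 31524 components tested in grey and the 200 components in orange. The orange points centre at 0.19, 0.00 and -0.17, and those farthest from 0 are comp5290_c0 (7.24 and -7.83) and comp19521_c0 (8.43).

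Between ganglion 19 and ganglion 10, the 200 components leaned slightly to the ganglion 19 side while the table as a whole leaned the other way. The median log2 fold change was 0.19, with 127 components above 0 and 73 below, against a median of -0.44 over all tested, which was 0.07 for components with 2 to 9 contigs and -0.67 for single contigs. The lean rested on library 9: without it the median of the 200 was -0.01 with 99 above 0, and with limma voom it was 0.04 with 105 above 0. Both components with the smallest p on the higher side rested on a few libraries. Component comp5290_c0, with 11 contigs, had 74.0, 49.4 and 1.08 CPM in ganglion 19, 0 to 0.976 CPM in ganglion 10 (median 0.154) and 187, 0.362 and 0.395 CPM in ganglion 2. It was thus abundant in libraries 3, 6 and 1 and at no more than 18 counts in each of the other 9, and a count of 0 allowed up to 0.243 CPM in library 10. Its log2 fold change was 7.24 (SE 1.59, edgeR adjusted p = 0.0794), with every ganglion 19 library above every ganglion 10 library. That adjusted p ran from 5.7e-04 to 0.381 over 25 alternatives, 9 of which called it.

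Component comp15529_c0, with 16 contigs, showed the same libraries high. It had 104, 79.4 and 0.480 CPM in ganglion 19, 0.342 to 3.71 CPM in ganglion 10 (median 0.531) and 355, 0.241 and 0.330 CPM in ganglion 2. Library 9 lay within the ganglion 10 range, so the groups overlapped, and the log2 fold change was 5.79 (SE 1.501, edgeR adjusted p = 0.135). Both components carried counts on more contigs where they were abundant: comp5290_c0 showed 6, 8 and 8 contigs in libraries 3, 6 and 1 and no more than 4 elsewhere, and comp15529_c0 showed 10 in each of these and no more than 6 elsewhere.

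On the lower side, comp21277_c0 had 1.74, 6.61 and 6.30 CPM in ganglion 19, 16.1 to 65.5 CPM in ganglion 10 (median 35.9) and 23.3, 16.2 and 47.3 CPM in ganglion 2. Every ganglion 19 library was below all others, and each held counts on a single contig, against 3 to 9 contigs in ganglion 10. The log2 fold change over ganglion 10 was -2.86 (SE 0.95, edgeR adjusted p = 0.165). Component comp12821_c0 had 0.349, 38.6 and 0.300 CPM in ganglion 19, 4.01 to 314 CPM in ganglion 10 (median 181) and 0.969, 75.6 and 174 CPM in ganglion 2, with overlap and an estimate of -3.55 on the log2 scale (SE 1.55; adjusted p = 0.189 by edgeR). Without library 6 its log2 fold change was -8.89. Over all 200, every ganglion 19 library lay above every ganglion 10 library for 4 components (comp16428_c2, comp18099_c0, comp4765_c0 and comp5290_c0, background 1.9%) and below for 3 (comp15580_c0, comp11083_c0 and comp21277_c0, background 8.42%), a list chosen by these values.

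**Figure D5:**
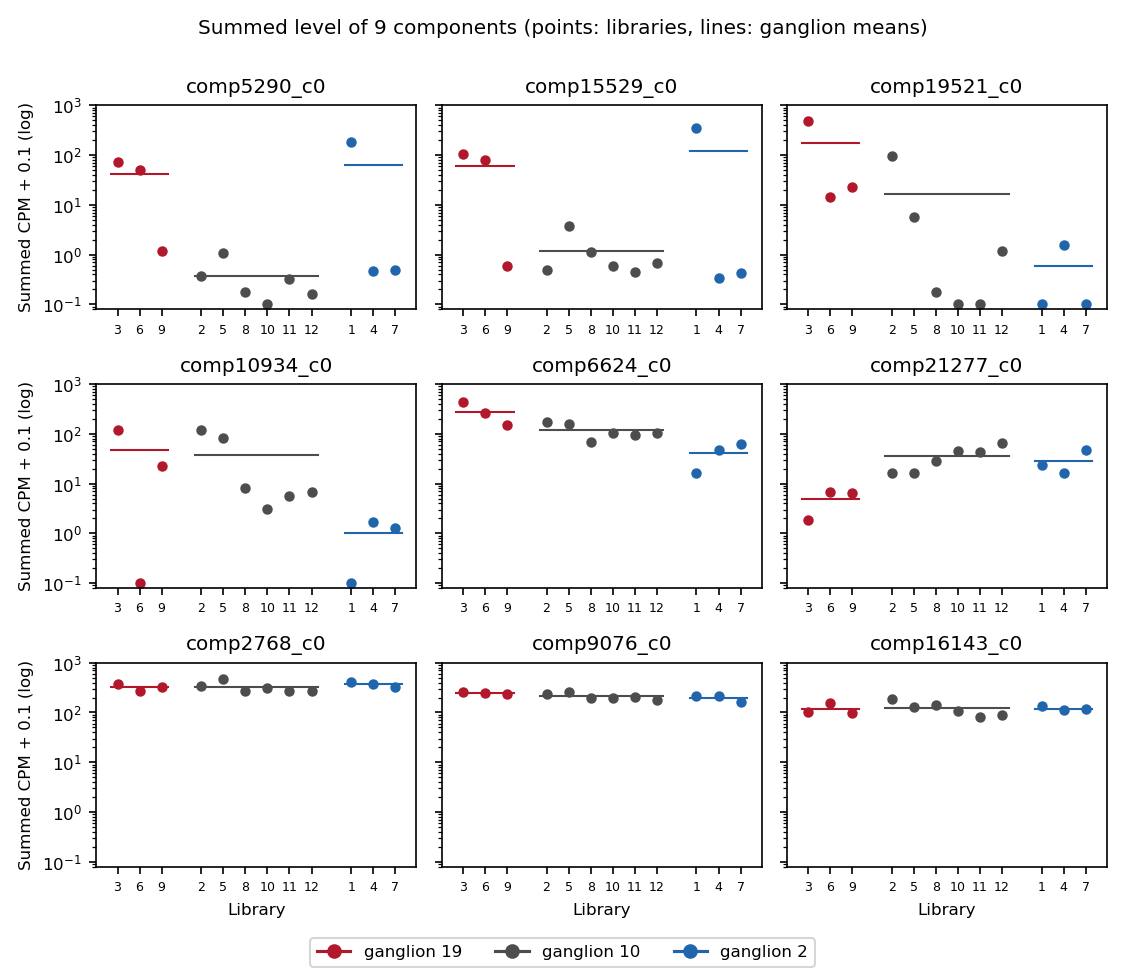
Summed CPM plus 0.1 (y axis, log scale) of 9 components in each library (x axis), with ganglion 19 left, ganglion 10 in the middle and ganglion 2 right, and lines at the ganglion means. Components comp5290_c0 and comp15529_c0 were high in libraries 3, 6 and 1, comp6624_c0 was in order along the chain with 279, 116 and 41.3 CPM in ganglion 19, 10 and 2, and the bottom row shows steady sums.

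Between ganglion 19 and ganglion 2, the 200 components were evenly divided, 100 above 0 and 100 below, with a median log2 fold change of 0.00 against -0.23 over all tested. This balance depended on the scaling, since with upper quartile scaling 78 were above 0, the median of the 200 was -0.31 and that of all tested -0.45. It depended on single libraries as well: 134 were above 0 without library 1 (median 0.32), 130 without libraries 1 and 3 (median 0.33) and 85 without library 9 (median -0.19). Component comp6624_c0, with 12 contigs, had its ganglion means in order along the chain. It had 426, 257 and 153 CPM in ganglion 19, 68.6, 94.5, 101, 103, 156 and 175 CPM in ganglion 10 and 16.5, 46.4 and 60.9 CPM in ganglion 2. Each ganglion 19 library and each ganglion 10 library was above all ganglion 2 libraries, while 19 and 10 overlapped. The log2 fold change of 19 over 2 was 2.75 (SE 0.77, edgeR adjusted p = 0.166), and DESeq2 called it (adjusted p = 0.0102).

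Component comp19521_c0, with 21 contigs, had 475, 14.2 and 23.0 CPM in ganglion 19, 0 to 93.8 CPM in ganglion 10 (median 0.583) and 0, 1.45 and 0 CPM in ganglion 2. All ganglion 19 libraries were above all ganglion 2 libraries, 2 of which had no counts, and these zeros allowed up to 0.581 CPM in library 1 and 0.198 CPM in library 7. The fitted value of 8.43 on the log2 scale (SE 2.75; adjusted p = 0.195 by edgeR) ranged from 5.12 without library 3 to 13.81 without library 4, so its size was set by single libraries. When ganglion 10 was left out of the fit the adjusted edgeR p was 0.0394. Over its alternatives the adjusted p ran from 7.8e-04 to 0.511, and 3 of the 24 with an adjusted p called it.

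Lower in ganglion 19 than in ganglion 2 were the estimates of comp13857_c0 and comp11083_c0, and library 1 carried both. Component comp13857_c0 had 2.09, 32.8 and 7.26 CPM in ganglion 19, 21.2 to 51.0 CPM in ganglion 10 (median 34.5) and 438, 54.8 and 29.1 CPM in ganglion 2. Its log2 fold change was -3.63 (SE 1.10, edgeR adjusted p = 0.182), and -1.58 without library 1. Component comp11083_c0 had 26.5, 33.4 and 44.4 CPM in ganglion 19, 54.1 to 96.1 CPM in ganglion 10 (median 84.6) and 568, 51.0 and 59.2 CPM in ganglion 2. It was below all other libraries in ganglion 19, and its estimate over ganglion 2 was -2.70 on the log2 scale (SE 0.88; adjusted p = 0.195 by edgeR), or -0.69 without library 1. In the whole set 12 components had all ganglion 19 libraries above all ganglion 2 libraries (background 3.68%) and 8 had them below (background 4.22%).

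Between ganglion 10 and ganglion 2, the 200 components leaned to the ganglion 2 side with a median log2 fold change of -0.17 and 88 above 0, against 0.37 over all tested. The lean changed with the scaling and with library 1: 58 were above 0 with upper quartile scaling (median -0.49, all tested 0.19), and without library 1 the median was 0.09 with 114 above 0, as it was without libraries 1 and 3. With limma voom 109 were above 0 (median 0.06). Component comp10934_c0, with 15 contigs, was the one with the smallest p on the higher side. It had 120, 0 and 22.6 CPM in ganglion 19, 3.00 to 117 CPM in ganglion 10 (median 7.37) and 0, 1.57 and 1.19 CPM in ganglion 2, and every ganglion 10 library was above every ganglion 2 library. The log2 fold change was 5.28 (SE 1.85, edgeR adjusted p = 0.398). In libraries 2, 5 and 3, where it was most abundant, 1 contig, comp10934_c0_seq3, took 99.0%, 93.9% and 76.0% of the counts, and in libraries 8, 10, 11 and 12 it took 7.58% to 24.7%.

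Component comp20376_c0 had 9.24, 1.94 and 36.5 CPM in ganglion 19, 2.71 to 77.0 CPM in ganglion 10 (median 15.9) and 0.194, 6.64 and 1.71 CPM in ganglion 2. Its groups overlapped and the log2 fold change of 10 over 2 was 3.25 (SE 1.36, edgeR adjusted p = 0.403). On the lower side the smallest p belonged again to comp5290_c0, at -7.83 (SE 1.62, edgeR adjusted p = 0.0940), and comp15529_c0, at -6.75 (SE 1.55, edgeR adjusted p = 0.132). Both rested on library 1, as the values above show: without it comp5290_c0 stood at -0.56 and comp15529_c0 at 1.83. Ganglion 10 was wholly above ganglion 2 for 4 components (comp27114_c0, comp10934_c0, comp24454_c0 and comp6624_c0, background 3.65%) and wholly below for 2 (comp10870_c0 and comp17994_c0, background 0.504%), a list chosen by these values. For comp10870_c0 the levels were 61.0, 82.1 and 61.8 CPM in ganglion 19, 35.3 to 67.3 CPM in ganglion 10 and 108, 74.3 and 78.0 CPM in ganglion 2.

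The share of the leading contig was then compared between ganglia as its log2 odds, the log2 of its counts over those of all other contigs of the component. Of the 200 components 189 had enough counts, among 3370 components tested, and 33 of the 189 had at least 1 library left missing for lack of counts. None of the 189 passed limma's test with Benjamini-Hochberg adjustment for ganglion 19 over 10 (0.0593% of all tested), 19 over 2 (0.089%) or 10 over 2 (0%). At an unadjusted limma p under 0.05 there were 30 of the 189 for 19 over 10 (7.92% of all). There were 19 for 19 over 2 (6.35% of all) and 8 for 10 over 2 (3.89% of all). These backgrounds are not like for like. For 19 over 2, 1222 of the 3370 had a log2 odds difference above 0, 1305 below 0 and the rest were at 0. Differences within 1 made up 49.2% of all tested for that pair and 23.3% of the 189. The medians over all tested carry the same limit. The median log2 difference was -1.27 for 19 over 10, -0.18 for 19 over 2 and 0.98 for 10 over 2, with 0.00 over all tested in each. Library 1 set much of the last pair of values: without it the medians were -1.27, -1.33 and 0.11, and without libraries 1 and 3 they were -0.86, -1.02 and 0.11. Leaving out library 3, 6, 7 or 9 in turn gave medians of -0.27, -0.60, -0.605 and -0.49 for 19 over 2. The leading contig was chosen over 12 libraries of which 6 are of ganglion 10, so ganglion 10 weighs most in that choice. With the ganglia weighted equally in that choice the leader differed in 29 of the 200, the medians were -0.89, -0.13 and 0.55, and 25, 18 and 6 components had an unadjusted limma p under 0.05.

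Component comp17278_c0, with 27 contigs, had the smallest adjusted p for the share. Its leading contig comp17278_c0_seq2 took 4.78%, 0.960% and 0% of the counts in ganglion 19, 29.0% to 45.6% in ganglion 10 (median 34.7%) and 25.2%, 34.8% and 24.7% in ganglion 2. All 3 ganglion 19 libraries were below all other libraries, and a different contig led in each of them, comp17278_c0_seq9 with 60.8% in library 3, comp17278_c0_seq12 with 68.6% in library 9 and another with 35.4% in library 6. The log2 odds difference was -6.45 for 19 over 10 (SE 1.16, limma adjusted p = 0.122) and -5.94 for 19 over 2 (SE 1.34, limma adjusted p = 0.250). The adjusted p for 19 over 10 ran from 0.0179 to 0.735 over 22 alternatives, and 3 called it, those without library 3, without library 9 and without libraries 1 and 3. The summed level of the component differed by -0.82 on the log2 scale for 19 over 10 (SE 0.69; adjusted p = 0.565 by edgeR).

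Component comp20840_c0 showed a like pattern for ganglion 19 over 10. Its leading contig took 0.211%, 5.90% and 0.647% in ganglion 19, 23.5% to 80.6% in ganglion 10 (median 27.6%) and 7.89%, 18.4% and 21.3% in ganglion 2, where the first rests on 38 counts (95% Wilson interval 2.72% to 20.8%). Ganglion 19 was below both other ganglia, with a log2 odds difference of -5.96 over ganglion 10 (SE 1.18, limma adjusted p = 0.183). Component comp11083_c0 had no counts of its leading contig, comp11083_c0_seq9, in any ganglion 19 library, against 0.734% to 63.2% in ganglion 10 (median 28.2%) and 17.8%, 72.3% and 42.0% in ganglion 2. In its ganglion 19 libraries 2 contigs with identical values took 46.7% each in library 3, and another, comp11083_c0_seq6, took 91.9% in library 9. The log2 odds difference from ganglion 2 was -8.97 (SE 1.87, limma adjusted p = 0.195), a fitted value that depends on the pseudocount because one side had no counts.

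In the other direction, comp26803_c0_seq1, the leading contig of comp26803_c0, took 97.3%, 54.3% and 94.8% in ganglion 19, 13.1% to 39.8% in ganglion 10 (median 20.5%) and 0%, 8.11% and 8.63% in ganglion 2. Every ganglion 19 library was above every other library, although those of libraries 6 and 9 rest on 46 and 77 counts (95% Wilson intervals 40.2% to 67.9% and 87.4% to 97.96%). The log2 odds difference was 4.81 over ganglion 10 (SE 1.35, limma adjusted p = 0.358) and 8.21 over ganglion 2 (SE 1.55, limma adjusted p = 0.193). In library 1, comp26803_c0_seq13 took 98.3%. Component comp12929_c0 had its leading contig at 100%, 100% and 50.2% in ganglion 19, 4.86% to 61.8% in ganglion 10 (median 39.3%) and 97.3%, 22.6% and 38.55% in ganglion 2, with overlap and a log2 odds difference of 6.83 over ganglion 10 (SE 2.21, limma adjusted p = 0.463).

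Component comp16143_c0 combined a flat sum with a share whose ganglion medians were in order along the chain. Its sum was 101.9, 153 and 95.7 CPM in ganglion 19, 82.5 to 184 CPM in ganglion 10 (median 117) and 132, 111 and 116 CPM in ganglion 2. The 3 ganglion means were 117 ± 31.7 (n = 3), 122 ± 38.5 (n = 6) and 120 ± 10.9 CPM (n = 3), each with its SD. Its leading contig took 86.5%, 62.5% and 55.1% in ganglion 19, 33.3% to 54.6% in ganglion 10 (median 50.2%) and 11.6%, 30.8% and 45.6% in ganglion 2. All ganglion 19 libraries were above all others, and ganglia 10 and 2 overlapped. The log2 odds difference of 19 over 2 was 2.68 (SE 0.75, limma adjusted p = 0.405).

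Between ganglion 10 and ganglion 2, the largest estimates of the share rested on libraries without counts of the leading contig. In comp14638_c0 the leading contig took 0%, 2.63% and 0% in ganglion 19, 32.8% to 100% in ganglion 10 (median 55.0%) and 0% in all 3 ganglion 2 libraries, of which library 1 held 2 counts. The log2 odds difference of 10 over 2 was 10.87 (SE 2.63, limma adjusted p = 1), and with the ganglia weighted equally in the choice of leader it was 0.62. In comp18299_c0 the leading contig took 100%, 100% and 21.6% in ganglion 19, 68.0% to 100% in ganglion 10 (median 86.9%) and 0%, 49.0% and 0% in ganglion 2. Ganglion 10 was above ganglion 2 throughout, with a log2 odds difference of 10.72 (SE 3.08, limma adjusted p = 1). The smallest p in the opposite direction belonged to comp14251_c0 and comp11784_c0, with log2 odds differences of -2.02 (SE 0.72, limma adjusted p = 1) and -0.93 (SE 0.51, limma adjusted p = 1).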

How the data were processed

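The deposited table gives counts per contig, whole numbers for libraries 1 to 9, and expected counts for libraries 10, 11 and 12, of which 29.1%, 25.2% and 29.2% were not whole as deposited. Per the submitters' processing notes the authors used FastQC, RSEM, TopHat and Cufflinks; their versions and order, the assembler and any filters were not given in the sources used here. Here contigs were summed by component and the sums rounded. edgeR 4.0.16 (R 4.3.3) was applied with filterByExpr (minimum count 10), which kept 31524 components and removed 27069, TMM scaling, and 1 quasi-likelihood fit to all 12 libraries with ganglion as the only factor; p-values were adjusted by Benjamini-Hochberg, with a threshold of 0.05. CPM values use TMM-scaled totals. The common biological coefficient of variation was 1.31. The log2 odds of the leading contig (pseudocount 0.5) were tested by limma 3.58.1, with moderated variance, trend and robust options, in components of more than 1 contig with at least 50 counts in at least 9 libraries; a library under 10 counts was missing. Contigs with counts had at least 1 count after rounding, also after thinning (seed 20240) and after reduction to 100 counts.

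Alternatives were DESeq2 1.42.0, limma voom with library weights, other scalings, filters, pseudocounts and count minimums, the sequencing lane in the model, a block for runs of consecutive library numbers (libraries 1 to 9), subsets of libraries, identical contigs merged, and leaving out each library. Components were named as follows: the 10 with the most contigs; per contrast and direction the 2 with the smallest p for level and for share; the 3 with the highest mean CPM (comp225_c0, comp5808_c0 and comp2768_c0); and, at 100 counts or more in every library, the 3 with the highest and the 3 with the lowest leading share. The components, lists and rules were chosen with earlier results of these data known. Libraries of 1 ganglion differed by far more than sampling noise, so none was merged. Both tests were tested on simulated data with known changes. Python 3.11.15 with numpy 2.4.6, scipy 1.17.1, pandas 2.3.3 and matplotlib 3.10.9 was used for the rest. No sequence of a contig was used here.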

Additional observations from a re-analysis of the deposited data

Results flagged for a closer look

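The 6 ganglion 10 libraries allow a look for a single library that stands far from the other 5, by the gap to its nearest neighbour relative to the whole range. Of 73 such groups (34 levels and 32 leading shares of the named components, and 7 summaries per library) 8 had one, or 11%. The usual rate of about 1 in 20 holds for independent, normally distributed values. It is no chance rate here, since the groups share the same 6 libraries and percent shares are bounded. Many of the components were also named for extreme values in these data. Whether 11% is more than chance was not tested.

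Library 5 was the highest in 4 of the 8. It held 468 CPM of comp2768_c0, where the other 5 ranged from 265 to 339 CPM. It held 194 CPM of comp2922_c1, where the others ranged from 55.5 to 97.0 CPM. In comp15529_c0 it held 3.71 CPM against 0.342 to 1.035 CPM, and in comp5290_c0 0.976 CPM against 0 to 0.267 CPM, the last from 10 counts. Library 2 held 93.8 CPM of comp19521_c0, a component at 0 to 5.56 CPM in the other ganglion 10 libraries. Library 8 held 405 CPM of comp4707_c0, where the others ranged from 256 to 308 CPM.

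Among the shares, the leading contig of comp2191_c1 took 23.35% of the counts in library 8 (95% Wilson interval 19.9% to 27.2%) and 79.4% to 91.3% in the other 5. The leading contig of comp15529_c0 took 83.3% in library 10, where that contig had only 5 counts after rounding, and 0% to 24.0% in the others.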

How the results depend on the processing

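Of the values of the main comparisons under other settings, 149 gave the same number of members called or stayed within the SD between libraries. In 29 more members were called than in the main setting, and 8 moved beyond that SD. The members called for summed level, 0 in each contrast, became 4, 5 and 4 with DESeq2 for ganglion 19 over 10, 19 over 2 and 10 over 2; 2 with voom, 2 without libraries 2 and 5, and 1 each with no filter, with the leading contig alone (comp11083_c0) and with only the ganglia compared for 19 over 10; 1 each with the block, with only the ganglia compared and without libraries 2 and 5 for 19 over 2; and 2 with no filter and 1 with upper quartile scaling for 10 over 2. Without 1 library in turn they ran from 0 to 2 for 19 over 10 (2 without library 1 or 2, 1 without 4 or 7), were 0 for 19 over 2, and ran from 0 to 2 for 10 over 2 (2 without library 4 or 7). The calls were mostly comp5290_c0, comp15529_c0 and comp19521_c0. For the leading share, the calls became 2 without libraries 1 and 3 and 1 without libraries 2 and 5 for 19 over 10, and 1 without libraries 2 and 5 for 19 over 2. Without 1 library in turn they ran from 0 to 5 for 19 over 10 (5 without library 6, 2 without 1, 1 without 3, 9 or 12) and from 0 to 1 for 19 over 2 (without library 6 or 12). One direction reversed: comp15529_c0 for 10 over 2 was at 0.059 with voom and 1.831 without libraries 1 and 3, and ran from -7.675 without library 5 to 1.826 without library 1. The top contig share of 49.4%, 41.3% and 48.3% in ganglion 19, 10 and 2 was 37.0%, 32.7% and 34.7% when counts were pooled over libraries, and 56.8% and 45.4% in ganglion 19 and 10 with identical contigs merged. The percent of contigs with counts, a mean over libraries of the median component of 50.9% in ganglion 10 and 40.01% in ganglion 2, was 37.3% and 28.9% at 10 counts or more, and 47.3% in ganglion 10 after reduction to 100 counts. The cause was not tested. Equal weights for the ganglia in choosing the leader were added after seeing the data.

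No paired analysis was possible because the labels give each library a number of its own, none shared between ganglia, and name no animal. A block for runs of 3 library numbers (libraries 1 to 9), which the labels do not tie to a leech, called 0, 1 (comp19521_c0, edgeR adjusted p = 7.8e-04) and 0 members for level and 0 in each contrast for share. Over all components tested, the 28 calls of 19 over 10 became 3458 with DESeq2 and 190 with voom, the 6 of 19 over 2 became 2279 and 12, and the 0 of 10 over 2 became 508 with DESeq2 and stayed at 0 with voom. Depth limits components near 0 counts.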

Other observations

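The ganglion with the highest mean level was 19 for 86 of the 200 components, 10 for 36 and 2 for 78, or 43%, 18% and 39%. Each mean is over 6 libraries in ganglion 10 and over 3 in the others, so a single library moves the ganglion 10 mean less. Over all components tested the shares were 32.2%, 38.4% and 29.4%. Part of this rests on single libraries: 60 components were highest in library 1, 46 in library 9 and 31 in library 3, together 137, while none was highest in library 10 or 11. Library 1 was lowest for another 50 and library 3 for 52.

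Component comp5808_c0, with 19 contigs, had the second highest mean level, 447 CPM, with 610, 335 and 730 CPM in ganglion 19, 212 to 664 CPM in ganglion 10 (median 437) and 607, 256 and 284 CPM in ganglion 2. Its leading contig took 0%, 13.8% and 56.5% in ganglion 19, 1.43% to 40.4% in ganglion 10 (median 4.50%) and 19.6%, 5.15% and 0.0464% in ganglion 2. Neither the levels nor the shares separated the ganglia. The most abundant contig of each library, not always the same one, exceeded 50% in every library in 2 components, comp11562_c0 and comp11367_c0. It did so in no library in 21.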
